A study of Rattus norvegicus with 42 samples.

Results

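The genes described are the 7 enzymes and transporters that commit carbon to glucose synthesis: Pc, Pck1, Pck2, Fbp1, G6pc, G6pc3 and Slc37a4. They were chosen by gene name, 7 of the 26258 gene names of the pSer2 Pol2 table, where they have 19 of 60999 coding regions, several of them repeated under a transcript name. GR regions were added by position: 19 of the 3981 GR-enriched regions had their centre within 50 kb of the start (TSS) of a member. Pck1 had 7 of these, G6pc 5, Fbp1 4, and Pck2, Pc and Slc37a4 had 1 each, while no region lay that near to G6pc3. The 6 members other than G6pc passed the filter of more than 10 reads in the RNA data.

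The study asked how the liver reads the pattern of glucocorticoid secretion. Male Sprague Dawley rats were adrenalectomised, so that every group lacked its own adrenal corticosterone, and received corticosterone (CORT) by vein for 3 h, either as hourly pulses of 20 min (PULS) or at a constant rate (CONS), or vehicle (VEH), the cyclodextrin carrier in saline. ChIP-Seq for the glucocorticoid receptor (GR) and for RNA polymerase II phosphorylated at serine 2 (pSer2 Pol2), the elongating form, was done at 140 min, the third pulse peak, and at 180 min, the nadir after it. The ChIP groups were PULS at 140 min (PEAK_140) and at 180 min (NADIR_180), CONS at the same times (CONS_140, CONS_180), and VEH given in pulses, each with 2 libraries per antibody. Each library pooled chromatin of 6 rats per the methods, and the 2 VEH libraries were taken at 140 min and 180 min, so that time within VEH has no replicate. RNA was sequenced at 180 min in 4 groups of 3 libraries: PULS CORT, CONS CORT, and VEH given in the same 2 patterns. The labels do not say that the RNA libraries of a group came from separate rats, so p-values measure only the spread between these samples, which may be technical.

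Gluconeogenesis rebuilds glucose from lactate, alanine and glycerol, and the liver does most of it during fasting. It bypasses the irreversible steps of glycolysis: pyruvate carboxylase (Pc) makes oxaloacetate in mitochondria, phosphoenolpyruvate carboxykinase (cytosolic Pck1, mitochondrial Pck2) turns it into phosphoenolpyruvate, fructose-1,6-bisphosphatase (Fbp1) removes a phosphate, and glucose-6-phosphatase (G6pc, with the widely expressed paralogue G6pc3) releases glucose inside the endoplasmic reticulum after the transporter Slc37a4 has carried glucose-6-phosphate in. Glucocorticoids are named for their effect on glucose, and Pck1 and G6pc are textbook targets of the hormone, of glucagon through cAMP, and of insulin.

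The promoters of Pck1 and G6pc are shown because each has a GR region over or beside its TSS. Each run is 250 bases before to 50 bases after the RefSeq gene start on GRCr8, read 5′ to 3′ on the plus strand. The Pck1 window is chr3:182348322-182348621 and the G6pc window, listed by RefSeq as G6pc1, is chr10:86807409-86807708. Capitals mark every match to 3 motifs searched on both strands: the glucocorticoid element core (half-sites GNACA and TGTNC with any 3 bases between), the cAMP element form TGACGTNA and the TATA box TATAAA.
Pck1: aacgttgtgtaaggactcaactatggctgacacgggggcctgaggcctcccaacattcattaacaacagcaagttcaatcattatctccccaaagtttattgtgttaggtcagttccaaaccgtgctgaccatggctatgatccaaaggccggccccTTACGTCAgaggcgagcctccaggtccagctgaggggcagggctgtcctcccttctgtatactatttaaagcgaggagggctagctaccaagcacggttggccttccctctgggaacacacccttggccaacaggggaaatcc
G6pc: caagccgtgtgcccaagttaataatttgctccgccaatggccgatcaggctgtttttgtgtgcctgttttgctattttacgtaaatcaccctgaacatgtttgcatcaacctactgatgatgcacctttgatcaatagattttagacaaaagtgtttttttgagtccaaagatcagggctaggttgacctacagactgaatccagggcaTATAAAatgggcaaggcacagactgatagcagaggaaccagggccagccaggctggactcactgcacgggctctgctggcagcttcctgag
Pck1 held 1 cAMP element match, on the reverse strand, at -93 to -86 from the start, and G6pc held 1 TATA box, at -41 to -36. Over all 33469 rat promoter windows the shares with a match were 3.25% for TGACGTNA, 14.2% for TATAAA and 0.439% for the glucocorticoid element core. No glucocorticoid element core was found in the windows of the 6 members that have one (Pck1, Pck2, Fbp1, G6pc, G6pc3 and Slc37a4). The best run against the full element (AGAACA and TGTTCT with 3 bases between) matched 9 of its 12 fixed letters in Pck1 and in G6pc. A score of 9 or more was found in 14.7% of all windows. In the other 4 genes it matched 7 of 12, a score that 94.8% of all windows reached or passed. These matches are letters only. The deposited regions are on the rn6 build, and the GR regions were not read as such. Those beside or over the starts of Pck1 and G6pc are 662 and 781 b long. A window of 300 bases can cover no more than part of either, and the rest was not searched.

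GR libraries held 2051977 to 6715803 tags and pSer2 Pol2 libraries 4938473 to 9326927, and the RNA libraries 3956379 to 7777219 counted reads. The tissue matched its label: the 5 hepatocyte markers summed to between 129000 and 181000 CPM (read counts scaled to library size) in every RNA library, against at most 328 for any list of Kupffer, endothelial, stellate, cholangiocyte or lymphocyte markers. The summed stellate list was lower with CORT, at 144 to 192 CPM in PULS CORT against 208 to 266 in PULS VEH and at 138 to 170 in CONS CORT against 194 to 207 in CONS VEH, and its part in the results was not tested. Of its 5 genes Col1a2 was at 0 and none was called lower. Reln changed by -0.54 with pulses and -0.45 with constant infusion (adjusted p = 0.017 and 0.024, edgeR), short of the 1.5-fold limit. Col1a1 and Lrat also lay below 0 in both patterns, not called. Dcn was called higher with constant infusion (1.16, adjusted p = 0.036, edgeR), so the sum does not hold for each gene. Fewer cells of a type and less RNA per cell cannot be told apart in these bulk samples. Among the GR libraries the median over all regions was 1.33 in NADIR_180 replicate 1 and -0.48 in replicate 2, and CONS_140 replicate 1 was the deepest library, so results that rest on these groups are given per library.

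GR enrichment rose upstream of Pck1, of G6pc and at Slc37a4 in PEAK_140, CONS_140 and CONS_180, and was not called raised at any of the 19 regions in NADIR_180. Values are the authors' log2 values per region, in which a region with few tags is drawn towards its own mean. A region was called when limma over all 10 libraries gave a Benjamini-Hochberg adjusted p under 0.05 and a change over 1.5-fold. In PEAK_140 against VEH, 10 of the 19 regions rose and 1 fell, where 78.6% of all 3981 regions rose and 1.83% fell. In CONS_140, 8 rose and 0 fell, where 64.7% of all regions rose and 0.377% fell. In CONS_180, 9 rose and 0 fell, where 67.9% of all rose and 0.301% fell. In NADIR_180, 0 rose, where 7.44% of all rose, and 1 fell, where 0.352% of all fell. These 4 comparisons share the VEH libraries. All regions tested hold a peak in at least 1 group, so raised regions are the rule in this table, and the members' counts do not stand above it. The median log2 difference from VEH over all regions was 4.17 in PEAK_140, 0.84 in NADIR_180, 3.38 in CONS_140 and 3.46 in CONS_180. Each library was then centred on its own median, which removes that shared rise. Centring shifts every region of a library by the same amount. A region called lower after centring therefore fell, or rose less than the library medians did, and it may still lie above VEH before centring. The VEH medians were -0.65 and -0.86, with 64.1% and 74.3% of regions below 0. The split for PEAK_140 turned from 10 raised and 1 lowered to 1 raised and 7 lowered. For CONS_140 it turned from 8 and 0 to 2 and 2, and for CONS_180 from 9 and 0 to 1 and 2. The shares of all 3981 regions called after centring are not given here, so counts after centring cannot be set against the background.

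**Figure D1:**
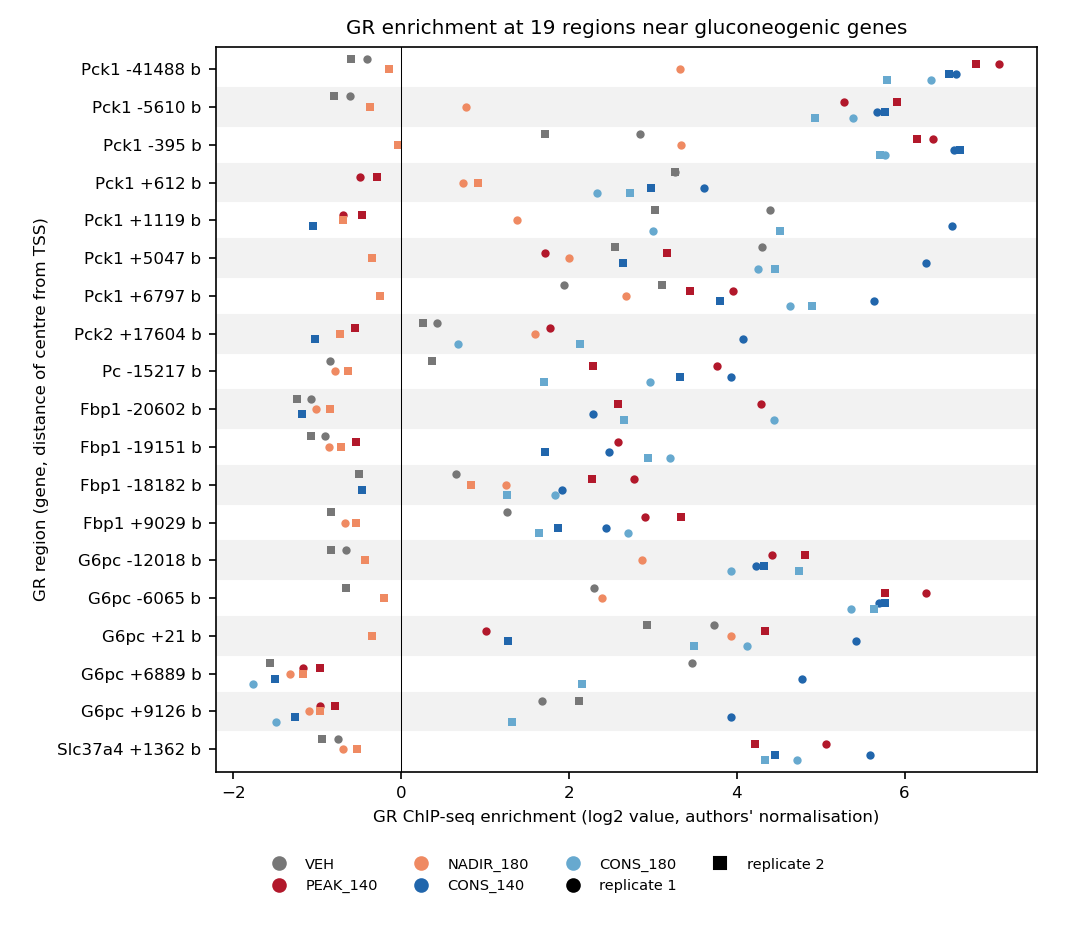
GR enrichment (horizontal axis, authors' log2 value) in each of the 10 libraries at the 19 regions near gluconeogenic genes (vertical axis, gene and distance of the region's centre from the TSS in b), with colours for the groups, circles for replicate 1 and squares for replicate 2. At Pck1 -41488 the PEAK_140, CONS_140 and CONS_180 libraries sit between 5.79 and 7.13, above VEH at -0.60 and -0.40, while at Pck1 +1119 the CONS_140 libraries lie apart at 6.56 and -1.05.

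Pck1 encodes the enzyme that is classically taken as the rate-setting step of gluconeogenesis. Its regions at -41488 b and -5610 b rose most over VEH among the 19 regions in PEAK_140, CONS_140 and CONS_180. The region centred at -5610 b (chr3:171208014-171208639 on rn6, intergenic) stood at -0.61 and -0.80 in VEH, 5.28 and 5.91 in PEAK_140, 0.77 and -0.37 in NADIR_180, 5.67 and 5.76 in CONS_140, and 5.39 and 4.93 in CONS_180. No library of the 3 high groups came near VEH, and NADIR_180 was not called above it. Both VEH libraries and NADIR_180 replicate 2 were below 0, at the low end of the scale. They held 3236498, 3902296 and 2556380 tags, and the part of depth in their order was not tested. Raw tags were not used, so a rise from such values is a log2 difference, not a ratio of tags. The difference from VEH was 6.30 ± 0.59 (SE, adjusted p = 4.6e-05, limma) in PEAK_140, 6.42 ± 0.59 (adjusted p = 5.3e-05) in CONS_140, 5.86 ± 0.59 (adjusted p = 1.0e-04) in CONS_180 and 0.91 ± 0.59 (adjusted p = 0.47) in NADIR_180. After centring, CONS_140 was still called (2.31, adjusted p = 0.039), while PEAK_140 (1.69, adjusted p = 0.11) and CONS_180 (1.80, adjusted p = 0.1) were not.

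The Pck1 region at -41488 b (chr3:171172109-171172787), whose nearest annotated gene is Ctcfl, read -0.40 and -0.60 in VEH, 7.13 and 6.85 in PEAK_140, 3.32 and -0.14 in NADIR_180, 6.61 and 6.53 in CONS_140, and 6.31 and 5.79 in CONS_180. It had the largest difference from VEH of the 19 regions in PEAK_140, 7.49 ± 0.93 (adjusted p = 1.7e-04, limma), and was the only one of the 19 still called raised in PEAK_140 after centring. Its 2 NADIR_180 libraries differed by more than 3 log2 units. Without NADIR_180 replicate 2 this region was called raised in NADIR_180, by 3.82 (adjusted p = 0.0016), as was the G6pc region at -12018 b, by 3.62 (adjusted p = 0.0049).

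The region at the Pck1 promoter, -395 b from the TSS (chr3:171213210-171213872), already carried signal in VEH, at 2.85 and 1.72. It read 6.34 and 6.15 in PEAK_140, 3.34 and -0.04 in NADIR_180, 6.59 and 6.66 in CONS_140, and 5.76 and 5.71 in CONS_180. The rise over VEH was 3.96 ± 0.93 in PEAK_140 (adjusted p = 0.0042), 4.34 ± 0.93 in CONS_140 (adjusted p = 0.0033) and 3.45 ± 0.93 in CONS_180 (adjusted p = 0.01), all from limma. The CONS_180 call was lost without VEH replicate 2 or either CONS_180 library (2.88 to 3.47, adjusted p 0.052 to 0.062), and without NADIR_180 replicate 1 the region was called lower in NADIR_180 (-2.33, adjusted p = 0.034). After centring, the difference was -0.66 in PEAK_140 and -0.62 in CONS_180, neither called.

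Inside the Pck1 gene body, 1 region fell in PEAK_140. The region in intron 2, +612 b from the TSS (chr3:171214474-171214623, the only one of the 7 with a VEH peak alone), read 3.26 and 3.26 in VEH, -0.49 and -0.29 in PEAK_140, 0.74 and 0.92 in NADIR_180, 3.61 and 2.98 in CONS_140, and 2.33 and 2.73 in CONS_180. It fell by 3.65 ± 0.60 in PEAK_140 (adjusted p = 6.5e-04, limma) and by 2.43 ± 0.60 in NADIR_180 (adjusted p = 0.042), the single lowered call among the 19 regions in each. The NADIR_180 call was lost without either VEH library or NADIR_180 replicate 1 (adjusted p 0.094 to 0.22) and in a fit of those groups alone. In CONS_140 and CONS_180 the difference from VEH was 0.03 and -0.73, not called, and after centring the CONS_140 difference was -4.08 (adjusted p = 0.012).

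The remaining Pck1 regions depended on the library. At +1119 b, in intron 3, the 2 CONS_140 libraries read 6.56 and -1.05, against 4.40 and 3.03 in VEH and -0.69 and -0.47 in PEAK_140. At +5047 b, in the last exon, CONS_140 read 6.25 and 2.64, and VEH 4.30 and 2.55. At +6797 b, at the transcript end, CONS_140 read 5.63 and 3.80, CONS_180 4.63 and 4.90, and VEH 1.94 and 3.11. None of these 3 was called against VEH in any CORT group, although +1119 was called lower in CONS_140 without CONS_140 replicate 1 (-4.76, adjusted p = 0.011) and +6797 higher without replicate 2 (3.10, adjusted p = 0.048). In fits of the compared groups alone, +1119 was called lower in PEAK_140 (-4.30, adjusted p = 0.0044) and +6797 higher in CONS_180 (2.24, adjusted p = 0.025). After centring, all 3 were called lower in PEAK_140 (-8.91, -5.60 and -3.45), which is relative to the library medians. Before centring, +6797 lay above VEH in PEAK_140 by 1.17, not called.

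**Figure D2:**
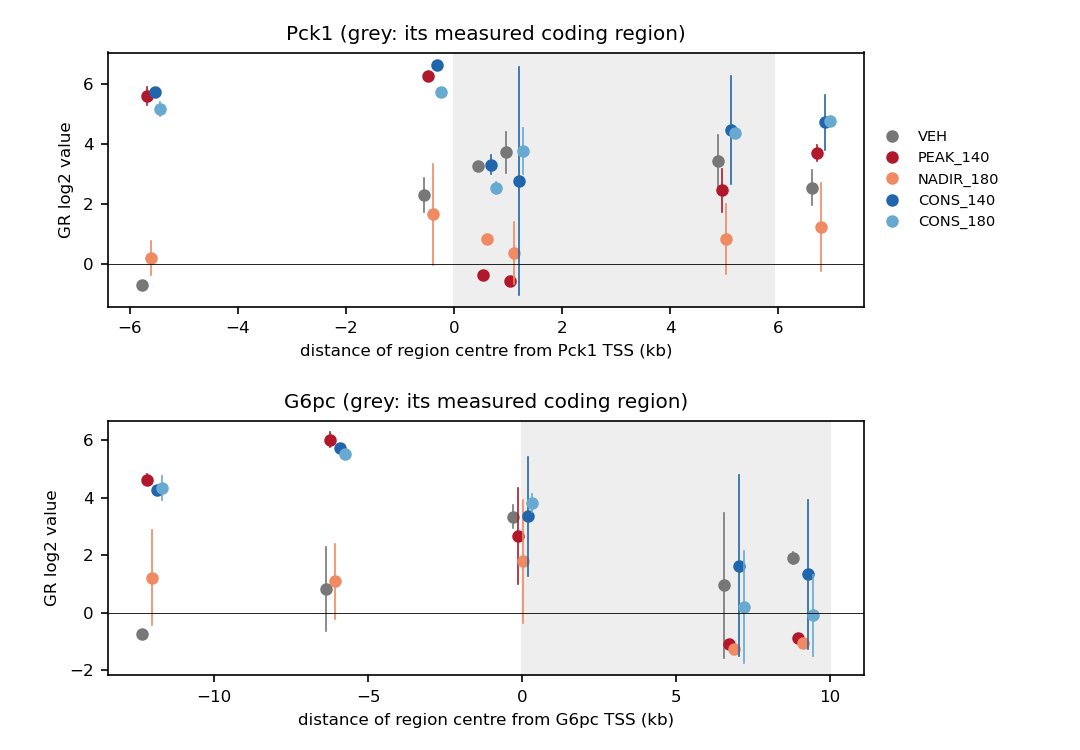
GR log2 value (vertical axes) against distance of the region's centre from the TSS in kb (horizontal axes) for the regions within 20 kb of Pck1 (top) and G6pc (bottom); dots are group means, vertical lines join the 2 libraries of a group, grey marks the coding region used for pSer2 Pol2, and groups are set side by side around each position. Upstream of Pck1, at -5610 b, PEAK_140, CONS_140 and CONS_180 lie above VEH, while at +612 b PEAK_140, at -0.49 and -0.29, lies below VEH, at 3.26.

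G6pc encodes the catalytic subunit of glucose-6-phosphatase in liver. Its 2 upstream regions are both annotated to intron 17 of ENSRNOT00000077603, a transcript that runs through the locus. The region at -6065 b (chr10:89279478-89280103) read 2.30 and -0.65 in VEH, 6.26 and 5.77 in PEAK_140, 2.39 and -0.20 in NADIR_180, 5.70 and 5.76 in CONS_140, and 5.36 and 5.64 in CONS_180. It was higher than VEH by 5.19 ± 1.04 in PEAK_140 (adjusted p = 0.0018, limma), by 4.90 ± 1.04 in CONS_140 and by 4.68 ± 1.04 in CONS_180. The region at -12018 b (chr10:89273523-89274152) read -0.66 and -0.84 in VEH, 4.42 and 4.81 in PEAK_140, 2.87 and -0.43 in NADIR_180, 4.23 and 4.32 in CONS_140, and 3.93 and 4.74 in CONS_180. Its differences from VEH were 5.37, 5.03 and 5.09 in PEAK_140, CONS_140 and CONS_180, each called. After centring they were 0.75, 0.91 and 1.02, and those at -6065 b were 0.57, 0.79 and 0.61, none called (adjusted p 0.40 to 0.72).

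The region over the G6pc TSS itself (chr10:89285486-89286267, centre +21 b) was not called against VEH in any group. It stands in the authors' peak lists of PEAK_140, CONS_140 and CONS_180, and not in those of VEH or NADIR_180. Its libraries were spread widely within groups: 3.73 and 2.93 in VEH, 1.01 and 4.34 in PEAK_140, 3.93 and -0.34 in NADIR_180, 5.42 and 1.28 in CONS_140, and 4.12 and 3.49 in CONS_180. The SE of a difference was 1.72 log2 units here, against 1.04 at -6065 b. After centring the region was called lower in PEAK_140 (-5.27, adjusted p = 0.019). At +6889 b and +9126 b, in an intron and in the last exon, CONS_140 replicate 1 read 4.78 and 3.93 while replicate 2 read -1.50 and -1.26, and neither was called. Without replicate 1 the +9126 b region was called lower in CONS_140 (-3.16, adjusted p = 0.047), and in a fit of PEAK_140 and VEH alone it was called lower in PEAK_140 (-2.78, adjusted p = 0.0042). After centring, PEAK_140 was called lower at +6889 b (-6.65, adjusted p = 0.048) and +9126 b (-7.39, adjusted p = 0.006), and CONS_180 at +9126 b (-6.05, adjusted p = 0.032).

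Slc37a4, the glucose-6-phosphate transporter, had 1 region, +1362 b from the gene's annotated start and at the start of another of its transcripts (chr8:48717989-48718614, annotated promoter). It read -0.75 and -0.94 in VEH, 5.06 and 4.22 in PEAK_140, -0.69 and -0.52 in NADIR_180, 5.59 and 4.45 in CONS_140, and 4.72 and 4.34 in CONS_180. The groups fell into 2 separate ranges, with NADIR_180 at the level of VEH. The rise was 5.48 ± 0.64 in PEAK_140 (adjusted p = 1.2e-04, limma), 5.87 ± 0.64 in CONS_140 (adjusted p = 1.2e-04) and 5.38 ± 0.64 in CONS_180 (adjusted p = 2.2e-04), against 0.24 ± 0.64 in NADIR_180 (adjusted p = 0.94). After centring the 3 rises were 0.87, 1.76 and 1.31, none called (adjusted p = 0.52, 0.13 and 0.28).

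The 4 regions near Fbp1 were weaker, with no library above 4.44. The region in intron 1, +9029 b from the TSS (chr17:408254-408649), read 1.26 and -0.84 in VEH, 2.91 and 3.33 in PEAK_140, -0.67 and -0.54 in NADIR_180, 2.44 and 1.87 in CONS_140, and 2.71 and 1.64 in CONS_180. It rose in PEAK_140 by 2.91 ± 0.83 (adjusted p = 0.011, limma) and was 1.94 and 1.97 above VEH in CONS_140 and CONS_180, which did not pass (adjusted p = 0.067 and 0.062). Upstream, the -20602 b region (chr17:437770-438395) was called in PEAK_140 (4.59) and CONS_180 (4.71) and stood at 2.29 and -1.18 in the CONS_140 libraries. The -19151 b region was called in CONS_140 (3.09) and CONS_180 (4.07), and the -18182 b region in PEAK_140 (2.45). Several of these calls rested on 1 library. In PEAK_140 the call was lost at +9029 b without VEH replicate 2 (1.86, adjusted p = 0.11), at -20602 b without PEAK_140 replicate 1 (3.74, adjusted p = 0.056) and at -18182 b without VEH replicate 2 or either PEAK_140 library (1.87 to 2.70, adjusted p 0.064 to 0.18). In CONS_140 it was lost at -19151 b without either VEH library or CONS_140 replicate 1 (2.71 to 3.17, adjusted p 0.076 to 0.094), and in CONS_180 at -20602 b without CONS_180 replicate 1 (3.82, adjusted p = 0.063). In the other direction, +9029 b was called in CONS_140 (2.99) and CONS_180 (3.02) without VEH replicate 1, -20602 b in CONS_140 without CONS_140 replicate 2 (3.44), and -19151 b in PEAK_140 without PEAK_140 replicate 2 (3.58). The PEAK_140 differences at +9029 b, -20602 b and -18182 b and the CONS_140 difference at -19151 b lay below 0 after centring.

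Pc had a region at -15217 b from the start of its transcript ENSRNOT00000087432 (chr1:219817819-219818346, intron 1 of another transcript). It read -0.85 and 0.37 in VEH, 3.77 and 2.29 in PEAK_140, -0.79 and -0.63 in NADIR_180, 3.93 and 3.32 in CONS_140, and 2.97 and 1.70 in CONS_180. It rose by 3.27 ± 0.81 in PEAK_140, 3.87 ± 0.81 in CONS_140 and 2.57 ± 0.81 in CONS_180 (adjusted p = 0.0056, 0.0031 and 0.021, limma), and after centring all 3 differences were below 0 and not called. The CONS_180 call was also lost without VEH replicate 1 or CONS_180 replicate 1 (1.96 and 1.94, adjusted p = 0.13 and 0.12). The region 17604 b from the Pck2 start sits at the promoter of Dcaf11, read 4.08 and -1.03 in the CONS_140 libraries, and was called only without CONS_140 replicate 2 (3.73, adjusted p = 0.034).

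The direct comparisons ask whether GR enrichment followed the pattern of infusion. Between pulse peak and nadir, PEAK_140 was higher than NADIR_180 at 9 of the 19 regions and lower at 0, where 68.8% of all regions were higher and 0.452% lower. The 9 were Pck1 -41488, -5610 and -395, G6pc -12018 and -6065, Slc37a4 +1362, Pc -15217, Fbp1 -20602 and Fbp1 +9029, with differences of 3.40 to 5.40. The call at Fbp1 -20602 was lost without PEAK_140 replicate 1 or NADIR_180 replicate 2 (3.51 and 4.44, adjusted p = 0.082 and 0.051), and that at G6pc -12018 without either PEAK_140 library (3.60 and 3.21, adjusted p = 0.055 and 0.065). After centring, 0 of the 19 were higher and 1, Pck1 +612, was lower in PEAK_140. Within constant infusion 0 of the 19 differed between CONS_140 and CONS_180, where limma called 0% of all regions and 194 of the 3981 had an unadjusted p under 0.05. At 180 min CONS_180 was higher than NADIR_180 at 13 of the 19, where 49.6% of all were higher, and at 0 after centring. That count is the least steady: it was 2 without CONS_180 replicate 1, 6 without CONS_180 replicate 2 and 4 without NADIR_180 replicate 2, and only Pck1 -5610 and Slc37a4 +1362 were called each time. At 140 min PEAK_140 and CONS_140 differed at 0 of the 19, where 0.0502% of all did. The closest to a call was Pck1 +612, with PEAK_140 lower by 3.68 ± 0.60 (adjusted p = 0.091, limma). Without CONS_140 replicate 1 it was called, as were Fbp1 -20602 and Fbp1 -18182, both higher in PEAK_140.

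The difference of these time effects, (PEAK_140 minus NADIR_180) minus (CONS_140 minus CONS_180), was above 0 and called at 7 of the 19 regions, where 43.6% of all regions were called in that direction. At Pck1 -5610 it was 4.83 ± 0.83 (adjusted p = 0.0057, limma) and at Slc37a4 +1362 it was 4.75 ± 0.90 (adjusted p = 0.0075). Leaving out any 1 of the 8 CORT libraries left these 2 called, while the other 5 (Pck1 -41488, Pck1 -395, Fbp1 -20602, Fbp1 +9029 and G6pc -6065) each lost the call at least once. The count was 2 without PEAK_140 replicate 1 or CONS_180 replicate 1, 3 without CONS_140 replicate 2 or CONS_180 replicate 2, 4 without PEAK_140 replicate 2, and 0 after centring.

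For elongating polymerase, no member was called in any of the 9 pSer2 Pol2 comparisons with limma. The paper, with DESeq2 at the same limits and the gene variant of greatest change, reported G6pc occupancy lower at PEAK_140. It also reported Slc37a4 changed at both CONS times, lower in its text and higher in its figure legend. For each gene the region that carries its gene ID was used here, from the TSS to at most 10 kb. Each comparison was fitted over 38315 regions with tags. The share of genes called, taking 1 region for each of 16186 genes, was 0.914% in PEAK_140 against VEH, 0.00618% in NADIR_180, 0.778% in CONS_140 and 0.210% in CONS_180. It was 0.439% for PEAK_140 against NADIR_180, 0% for CONS_140 against CONS_180 (489 genes at an unadjusted p under 0.05), 0.0247% for PEAK_140 against CONS_140, 0.154% for CONS_180 against NADIR_180 and 0.0432% for the difference of the time effects. With shares this low, 0 of 7 members called is near the background. The unadjusted p was under 0.05 for 1 member in PEAK_140 against VEH and for 1 in NADIR_180 (G6pc in both), for 2 in CONS_140 (Slc37a4 and Pc) and for 0 in CONS_180, where 774, 222, 961 and 447 of the 16186 genes had such a p.

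**Figure D3:**
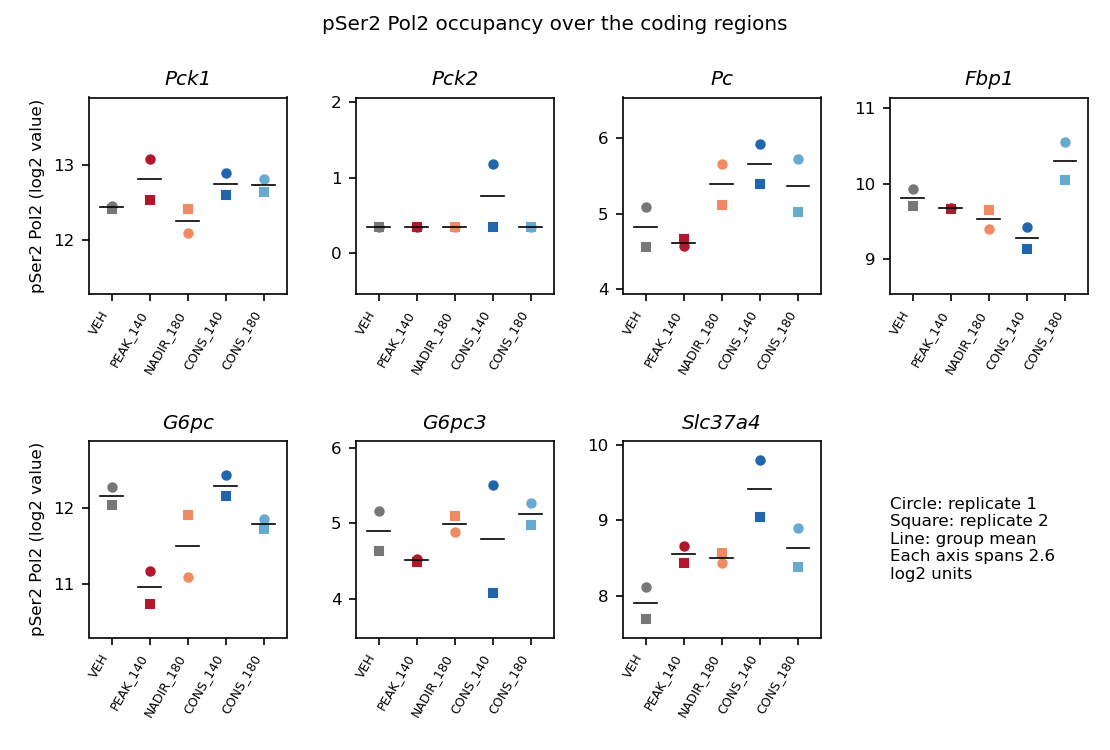
pSer2 Pol2 occupancy (vertical axes, authors' log2 value) over the coding region of each of the 7 genes in the 2 libraries of each group (horizontal axes); circles are replicate 1, squares replicate 2, lines the group mean, and every vertical axis spans the same number of log2 units. The PEAK_140 libraries of G6pc, at 11.17 and 10.74, lie below VEH at 12.28 and 12.05, and the CONS_140 libraries of Slc37a4, at 9.80 and 9.04, lie above VEH at 8.12 and 7.70.

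At the phosphatase end of the pathway, G6pc occupancy was lowest at the pulse peak. The libraries read 12.28 and 12.05 in VEH, 11.17 and 10.74 in PEAK_140, 11.09 and 11.91 in NADIR_180, 12.44 and 12.16 in CONS_140, and 11.86 and 11.73 in CONS_180. The PEAK_140 libraries lay below VEH and below both CONS groups, with 1 NADIR_180 library between them. The difference from VEH was -1.21 ± 0.29 (adjusted p = 0.11, limma) and that from CONS_140 was -1.34 ± 0.29 (adjusted p = 0.13), so neither passed over all regions. Both passed when only regions with a mean above the median were tested (adjusted p = 0.0061 and 0.0067), and the difference from CONS_140 also without CONS_140 replicate 2 (-1.48, adjusted p = 0.026). Over 8 other settings and left-out libraries the adjusted p for PEAK_140 against VEH ran from 0.0061 to 0.77. PEAK_140 was also lowest over the 2 other G6pc windows, which span 9.35 to 10.64 and 10.71 to 12.40 log2 units and lie within or nearly within the first.

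Slc37a4 occupancy read 8.12 and 7.70 in VEH, 8.66 and 8.44 in PEAK_140, 8.44 and 8.57 in NADIR_180, 9.80 and 9.04 in CONS_140, and 8.90 and 8.38 in CONS_180. All 8 CORT libraries were above both VEH libraries, and CONS_140 was highest. The difference in CONS_140 was 1.51 ± 0.35 (adjusted p = 0.11, limma), and it passed after centring (1.37, adjusted p = 0.022) and among regions with a mean above the median (adjusted p = 0.021). It also passed without CONS_140 replicate 2, where the remaining library is assumed to vary like the other groups (1.89, adjusted p = 0.0055). In PEAK_140, NADIR_180 and CONS_180 the differences were 0.64, 0.59 and 0.73, not called.

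Pck1 was densely occupied in every library, vehicle included: 12.45 and 12.42 in VEH, 13.08 and 12.53 in PEAK_140, 12.10 and 12.41 in NADIR_180, 12.89 and 12.60 in CONS_140, and 12.81 and 12.64 in CONS_180. The whole range was under 1 log2 unit. Differences from VEH were 0.37, -0.18, 0.31 and 0.29, each with an SE of 0.24, and adjusted p of at least 0.63.

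For Fbp1 the 2 constant groups fell on either side of VEH, at 9.43 and 9.13 in CONS_140 and 10.55 and 10.05 in CONS_180 against 9.93 and 9.70. CONS_140 was lower than CONS_180 by 1.03 ± 0.29 (adjusted p = 0.63, limma), which did not pass except without CONS_140 replicate 2 (-0.87, adjusted p = 0.04). PEAK_140 read 9.68 and 9.67, and NADIR_180 9.40 and 9.65.

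Pc is transcribed from several annotated starts. Its gene-level region read 4.56 to 5.92 over the 10 libraries and that of ENSRNOT00000082388 4.10 to 4.89, while that of ENSRNOT00000087432 (chr1:219833299-219843299) read 7.15 to 8.10. These windows are equal in length, and no comparison was called in any of them. In the gene-level region CONS_140, at 5.92 and 5.40, lay above PEAK_140, at 4.57 and 4.67 (difference of PEAK_140 from CONS_140 -1.04 ± 0.37, adjusted p = 0.38, limma), but in the region of ENSRNOT00000087432 this difference was -0.29 ± 0.42.

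Pck2, the mitochondrial paralogue of Pck1, stood at 0.34 or 0.35, its lowest values, in 9 of 10 libraries and at 1.18 in CONS_140 replicate 1, so its 4 calls without CONS_140 replicate 2 rest on that library alone. G6pc3, the widely expressed paralogue of G6pc, ranged from 4.07 to 5.50, and both extremes were CONS_140 libraries. It was called lower in PEAK_140 than in CONS_140 only without CONS_140 replicate 2 (-0.99, adjusted p = 0.046).

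Messenger RNA of Pck1 rose under both infusion patterns. In CPM, Pck1 read 2890, 2230 and 2070 in PULS CORT against 1500, 1060 and 1030 in PULS VEH, and 3200, 3420 and 3380 in CONS CORT against 1740, 1460 and 2130 in CONS VEH. No CORT library overlapped its vehicle group. The log2 fold change was 1.00 ± 0.17 (SE, adjusted p = 0.0031, edgeR quasi-likelihood) with pulses and 0.91 ± 0.17 (adjusted p = 0.0021) with constant infusion, or 2.00-fold and 1.88-fold. Both calls held in every alternative run and without any 1 library, at 0.84 to 1.20 for pulses and 0.79 to 1.06 for constant infusion.

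With pulses, 2 of the 6 members tested were called and both rose, where 1.79% of 14092 genes rose and 2.44% fell. With constant infusion 1 rose, where 4.45% of all rose and 4.75% fell. The 6 had a median change of 0.19 on the log2 scale with pulses and -0.01 with constant infusion, beside -0.01 over all genes in both.

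The second gene called with pulses was Slc37a4, at 115, 116 and 135 CPM in PULS CORT against 86.0, 69.5 and 85.9 in PULS VEH. Its log2 fold change of 0.60 ± 0.15 (adjusted p = 0.031, edgeR) was just over the threshold of 0.585, and the call was lost when any 1 of the 6 libraries was left out (0.51 to 0.65, adjusted p 0.055 to 0.13). In CONS CORT it read 129, 98.4 and 148 against 89.4, 85.1 and 110 in CONS VEH, a change of 0.40 ± 0.15 (adjusted p = 0.1) with overlapping groups.

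**Figure D4:**
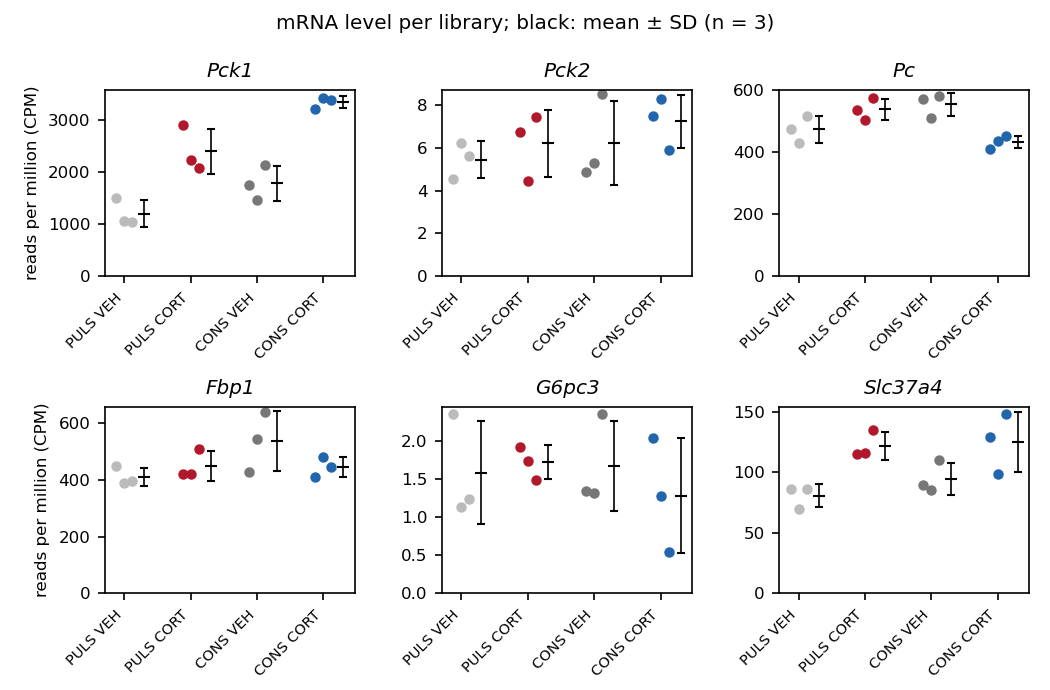
mRNA level (vertical axes, CPM from 0) of the 6 members tested, per library and group (horizontal axes), with mean ± SD (n = 3) in black. Pck1 is the clearest case, with CORT means of 2390 and 3330 above vehicle means of 1200 and 1780, while Pck2 and G6pc3 lie under 10 CPM.

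Pc supplies oxaloacetate. Its mRNA read 534, 504 and 573 CPM in PULS CORT against 475, 428 and 517 in PULS VEH, and 410, 436 and 450 in CONS CORT against 570, 511 and 581 in CONS VEH. The groups overlapped with pulses and did not with constant infusion. The fold change with constant infusion, -0.36 ± 0.11 (adjusted p = 0.047, edgeR), passed the test but not the 1.5-fold limit, and that with pulses was 0.18 ± 0.11 (adjusted p = 0.4). The difference between the patterns was -0.54 ± 0.16 (adjusted p = 0.15) and was not called.

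Fbp1 mRNA was 449 ± 51.9 CPM (SD, n = 3) in PULS CORT and 410 ± 32.5 in PULS VEH, and 446 ± 36.0 in CONS CORT and 537 ± 107 in CONS VEH, with overlap in both pairs. Pck2 (18 to 59 reads per library) and G6pc3 (3 to 13 reads) were too shallow for small changes: their log2 fold changes had SEs of 0.25 to 0.27 and of 0.46 to 0.47.

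G6pc is listed at 0 reads in all 12 libraries, although its coding region carried pSer2 Pol2 values above 10.7 in every ChIP library. Of the 4 other named genes that start within 50 kb of it, Aoc3 and Psme3 are also listed at 0, while Aarsd1 has 905 reads and AC123346.1 has 559 over the 12 libraries. AC123346.1 starts 2 b from Psme3 on the same strand. In the annotation of the GR regions the transcript ENSRNOT00000077603 spans G6pc. How reads shared by overlapping genes were counted is not given in the sources used here, and its part in the zeros was not tested. No fold change is given for G6pc mRNA.

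Between the 2 hormone patterns no member was called: CONS CORT against PULS CORT called 0 of 6, where 0.887% of all genes were called, and the pattern difference of the CORT effect called 0 of 6, where 0.0284% were. For Pck1 the CONS CORT libraries lay above the PULS CORT libraries (0.48 ± 0.17, adjusted p = 0.27, edgeR), but the vehicle groups were ordered alike, PULS VEH below CONS VEH by 0.57 ± 0.17 (adjusted p = 0.36). The difference of the 2 CORT effects on Pck1 was -0.09 ± 0.24 (adjusted p = 0.92). The 2 vehicle groups differed at 0 of the 6 members, where edgeR called 0% of all genes and 1286 of 14092 had an unadjusted p under 0.05, among them Pck1 and Fbp1.

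**Figure D5:**
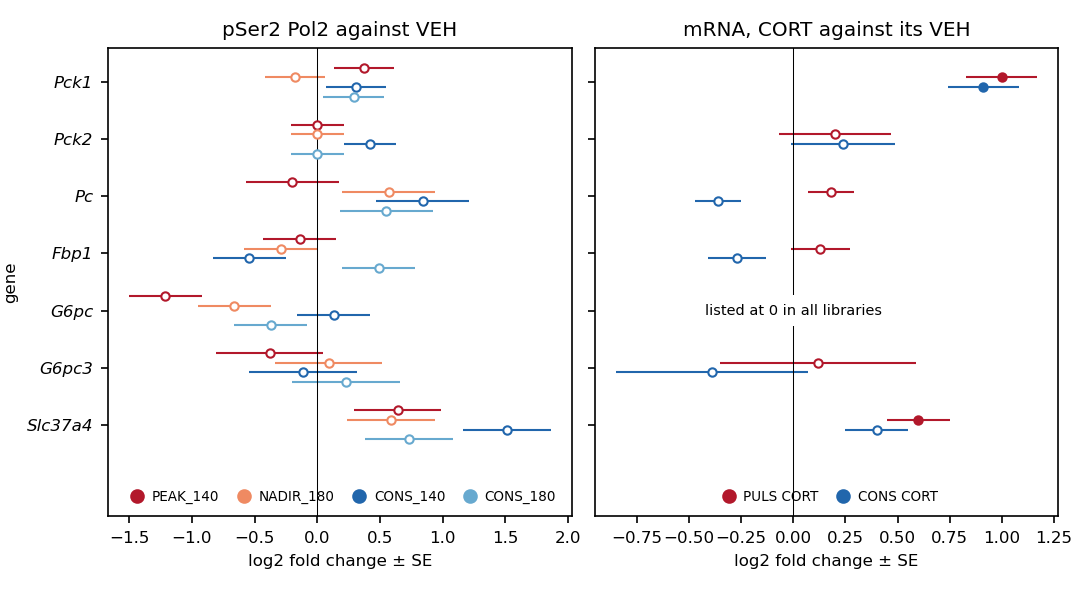
log2 fold change ± SE (horizontal axes) of each member (vertical axis) for pSer2 Pol2 in the 4 CORT groups against VEH (left, limma) and for mRNA in the 2 patterns against their own vehicle (right, edgeR); filled points passed an adjusted p under 0.05 and 1.5-fold. Only Pck1 mRNA in both patterns (1.00 and 0.91) and Slc37a4 mRNA with pulses (0.60) are filled, and no pSer2 Pol2 point is.

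By Pearson correlation of log2 CPM over the 12 RNA libraries, among 7046 genes with a mean above the median, genes among the most like Pck1 were Phyh (0.970) and Tat (0.954). Those most like Slc37a4 were RGD1306148 (0.943), Hspa13 (0.943) and Apbb3 (0.938). The 12 libraries share the treatment contrast, so these values describe order only.

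The other genes of the pathway were taken from 4 lists, to be read beside the shares over all genes. In RNA 1.79% rose and 2.44% fell with pulses, and 4.45% rose and 4.75% fell with constant infusion. For pSer2 Pol2, 0.914% were called in PEAK_140, 0.00618% in NADIR_180, 0.778% in CONS_140 and 0.210% in CONS_180. Of 11 reversible enzymes shared with glycolysis, 10 were measured in RNA: 2 rose with pulses and 1 with constant infusion, and none fell. Got1, the cytosolic aspartate aminotransferase, rose by 1.67 ± 0.20 (adjusted p = 1.6e-04, edgeR) and by 3.21 ± 0.21 (adjusted p = 8.6e-08), and the phosphoglycerate mutase Pgam1 by 0.68 ± 0.13 with pulses. The median of the list was 0.35 with pulses and -0.27 with constant infusion, beside -0.01 over all genes. Got1 was also the only one of its 9 measured list members called for pSer2 Pol2, higher in PEAK_140 (1.83 ± 0.31, adjusted p = 0.02, limma) and CONS_140 (1.72 ± 0.31, adjusted p = 0.03).

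The enzymes that oppose gluconeogenesis, and their regulators, moved in both directions. Of 10 measured in RNA, 1 rose with pulses, and 1 rose and 2 fell with constant infusion. Pfkfb1, the liver form of the bifunctional enzyme that sets fructose-2,6-bisphosphate, rose by 2.27 ± 0.23 with pulses (adjusted p = 3.9e-05, edgeR) and by 3.21 ± 0.24 with constant infusion (adjusted p = 3.0e-07). Pklr, liver pyruvate kinase, fell by 1.79 ± 0.27 and Pdk4, a kinase that inhibits pyruvate dehydrogenase, by 1.22 ± 0.26 with constant infusion. The list medians were 0.32 and -0.20, beside -0.01 over all genes in both. For pSer2 Pol2, Pfkfb1 was higher in PEAK_140, CONS_140 and CONS_180 (2.99, 3.30 and 3.44) and Pdk4 lower in PEAK_140 and CONS_140 (-2.03 and -1.62).

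A list of genes that supply substrate held enzymes and transporters for amino acids, lactate, pyruvate and glycerol. Of its 13 genes, 4 rose and 1 fell with pulses, and 4 rose and 2 fell with constant infusion, with list medians of 0.44 and 0.18 beside -0.01. Sds, serine dehydratase, which makes pyruvate from serine, rose by 3.02 ± 0.41 and 4.11 ± 0.42 (adjusted p = 4.5e-04 and 8.7e-06, edgeR). Tat, tyrosine aminotransferase, rose by 1.41 ± 0.29 and 1.82 ± 0.30, and Gk, glycerol kinase, fell by 1.18 ± 0.15 and 1.52 ± 0.15. Sds was raised for pSer2 Pol2 in PEAK_140, CONS_140 and CONS_180 (3.44, 2.54 and 2.20), and Gk was lowered in the same groups (-3.05, -1.73 and -2.30).

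Of 16 genes of transcriptional and hormonal control, 13 were measured in RNA: 3 rose and 1 fell with pulses, and 6 rose and 1 fell with constant infusion, with medians of 0.12 and 0.17. Klf15 rose by 1.23 ± 0.14 and 1.69 ± 0.13, Ppargc1a, the coactivator of Pck1 and G6pc, by 0.98 ± 0.21 and 2.93 ± 0.21, and Klf9 by 2.02 ± 0.21 with constant infusion. CONS CORT exceeded PULS CORT at 4 of the 13 (Ppargc1a, Klf15, Irs1 and Irs2). Of these, Irs1 was the gene that fell with pulses, to 0.501-fold of PULS VEH (adjusted p = 0.019, edgeR). Its log2 fold change with constant infusion was 0.09 ± 0.22, so its excess in CONS CORT came without a called rise over CONS VEH. For pSer2 Pol2, 4 of 15 were called, all higher in CONS_140 (Foxo1, Cebpb, Klf15 and Klf9), and 0 in PEAK_140, NADIR_180 or CONS_180.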

How the data were processed

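The 7 genes, the gene lists and the tests were chosen with earlier results of these data known. Livers were assayed in 42 libraries (10 GR, 10 pSer2 Pol2, 10 input, 12 RNA), grouped by their labels. The authors deposited raw counts of exonic reads per Ensembl gene (featureCounts 1.6.2, rn6, per the processing notes) and log2 values per ChIP region. ChIP reads of 50 b had been aligned to rn6 with bowtie2 and freed of duplicates, input tags were subtracted, and GR peaks were kept at an IDR of 0.01 between replicates and merged over groups (HOMER 4.9.1). The methods describe GR values as normalised to tags in binding regions, whereas the file headers name total tags. The files also hold the authors' own fold changes and p-values, which were not used, and flags for the group in whose peak list a GR region stands, deposited by the authors.

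ChIP log2 values were compared with limma 3.58.1 (R 4.3.3; all 10 libraries of an assay, variance trend), leaving out 22684 pSer2 Pol2 regions at 0 throughout. RNA counts of 14092 of 22929 genes with more than 10 reads in all were compared with edgeR 4.0.16 (TMM, quasi-likelihood, 12 libraries), with SEs from the F statistic. A call needed a Benjamini-Hochberg adjusted p under 0.05 over all features and 1.5-fold. DESeq2 1.42.0 was an alternative. Named genes were the 7 members, all GR regions within 50 kb, up to 3 called genes per list and comparison with the largest change, and the 3 genes most like each called member, of which 1 is not reported here. A member's TSS was the start of any of its annotated regions. Scripts were tested on simulated data. Same-numbered pSer2 Pol2 libraries deviated together from their group means (r = 0.155 to 0.553 over the CORT groups), though the labels name no pairs. The main fits held no term for the replicate number, and such a replicate block was run as an alternative. GR numbers (r = -0.027 to 0.072) and RNA numbers (-0.049 to 0.081) showed little shared deviation. Promoters came from RefSeq (GRCr8). Figures used matplotlib 3.10.9.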

Additional observations from a re-analysis of the deposited data

Results flagged for a closer look

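GR enrichment at 7 regions changed from 140 to 180 min differently with pulses than with constant infusion, by the test of that difference itself (limma, values on the log2 scale). The difference was 4.88 at Pck1 -41488 b (adjusted p = 0.021), 4.83 at Pck1 -5610 b (adjusted p = 0.0057), 3.70 at Pck1 -395 b (adjusted p = 0.048), 7.36 at Fbp1 -20602 b (adjusted p = 0.013), 3.75 at Fbp1 +9029 b (adjusted p = 0.033), 4.69 at G6pc -6065 b (adjusted p = 0.033) and 4.75 at Slc37a4 +1362 b (adjusted p = 0.0075). In each case PEAK_140 was above NADIR_180. At Fbp1 -20602 b part of the 7.36 came from the constant groups. There CONS_140 against CONS_180 was -3 (adjusted p = 0.92, limma), with CONS_140 libraries at 2.29 and -1.18. The median of the difference of time effects over all 3981 regions was 3.11, so the 7 regions share it with most of the GR regions. None of the 7 was called after the libraries were centred on their medians.

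Among the genes around the pathway, the same test gave 3.10 for Got1 pSer2 Pol2 occupancy (adjusted p = 0.042), and the difference of the CORT effect between constant and pulsatile infusion was 1.95 for Ppargc1a mRNA (adjusted p = 0.032, edgeR).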

How the results depend on the processing

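Of 360 RNA values recomputed for the members, 354 kept their side of the threshold and 6 lost the call, all 6 being Slc37a4 with pulses without 1 library. The RNA counts were unchanged by RLE normalization, DESeq2, no filter, a fit of the compared groups alone and the replicate block, and leaving out 1 library gave 1 in place of 2 with pulses.

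Centring GR libraries on their medians changed the number of regions called to 0 in NADIR_180, 4 in CONS_140, 3 in CONS_180, 1 for PEAK_140 against NADIR_180, 0 for CONS_180 against NADIR_180 and 0 for the difference of time effects. The centring itself removes the median rise. It reversed the sign in PEAK_140 at Pck1 -395 (-0.66), Pck1 +6797 (-3.45), Pc -15217 (-1.35), Fbp1 -20602 (-0.02), Fbp1 -18182 (-2.17) and Fbp1 +9029 (-1.70), in CONS_140 at Pck1 +612 (-4.08), Pc -15217 (-0.25), Fbp1 -19151 (-1.02) and Fbp1 -18182 (-3.46), in CONS_180 at Pck1 -395 (-0.62) and Pc -15217 (-1.49), for PEAK_140 against NADIR_180 at G6pc -12018 (-0.04), and for CONS_180 against NADIR_180 at Pck1 +612 (-1.18) and Fbp1 +9029 (-0.10). With the compared groups alone the counts were 0 in NADIR_180 and 7 for CONS_180 against NADIR_180. Among regions with a mean above the median, where fewer regions are tested, they were 6 in PEAK_140, 0 in NADIR_180 and 8 for CONS_180 against NADIR_180.

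Leaving out 1 library gave GR counts of 9 to 11 in PEAK_140, 0 to 3 in NADIR_180, 7 to 11 in CONS_140, 6 to 9 in CONS_180, 7 to 10 for PEAK_140 against NADIR_180, 0 to 3 for PEAK_140 against CONS_140, 2 to 10 for CONS_180 against NADIR_180 and 2 to 8 for the difference of time effects. The cause was not tested.

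For pSer2 Pol2, 1 member was called in CONS_140 after centring, and 1 each in PEAK_140, CONS_140 and PEAK_140 against CONS_140 among regions with a mean above the median. Leaving out 1 library gave 0 to 2 in CONS_140, 0 to 3 for CONS_140 against CONS_180, 0 to 4 for PEAK_140 against CONS_140 and 0 to 1 for the difference of time effects, every call coming without CONS_140 replicate 2. The replicate block called 0 members in each of the 5 pSer2 Pol2 comparisons between CORT groups, as without it. In GR, whose same-numbered libraries showed little shared deviation, the block gave 10 for PEAK_140 against NADIR_180 and 12 for CONS_180 against NADIR_180.

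The sign differed without a call in either fit for 127 of 1458 GR values, 24 of 558 pSer2 Pol2 values and 17 of 360 RNA values. With 2 libraries a group, the SE of a GR difference reached 2.25 at G6pc +6889, so smaller changes were not detectable there.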
